A study of Mus musculus with 4 samples.

Results

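Glycosyltransferases of the Golgi build the sugar chains of secreted and membrane proteins and of glycolipids, each adding 1 kind of sugar in 1 linkage. The set examined here comprised 75 of 18193 named genes, chosen by symbol: those beginning with St3gal, St6gal, St8sia, B3gnt, B3galt, B4galt, Galnt, Fut or Mgat followed by a digit or by nac. They were followed on 4 expression arrays of mouse osteoclast formation, with 1 array per stage and therefore no replicate. Bone marrow cells of C57BL/6 mice, 8 to 10 weeks old, gave bone marrow macrophages (BMM) after 3 days in 100 ng/ml M-CSF, the macrophage growth factor. Adding RANKL, the cytokine that drives osteoclast formation, at 100 ng/ml for 2 days gave mononuclear pre-osteoclasts that stain for tartrate-resistant acid phosphatase (pOC). A further 2 days with M-CSF and RANKL gave multinucleated osteoclasts, on slices of dentin (mOCd), the mineralized tissue of teeth, or on plastic (mOCp). All were primary cultures of 1 strain with no genetic change given in the labels, and the labels do not say how many animals supplied each RNA.

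The families act in order along a glycan. Galnt enzymes start mucin-type O-glycans by putting N-acetylgalactosamine on serine or threonine, and Mgat enzymes open the antennae of N-glycans. B4galt, B3galt and B3gnt enzymes lengthen chains with galactose and N-acetylglucosamine, Fut enzymes add fucose, and the sialyltransferases (St3gal, St6gal, St6galnac and St8sia) cap chains with sialic acid. Osteoclasts carry Siglec-15, a receptor for sialylated glycans, and sialic acid on the cell surface is known to matter for the fusion of their precursors.

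The 75 genes were read by 152 probe sets, and the one brightest on average (log2 scale) stands for its gene. Values are signal intensities in arbitrary units. Those under the median of an array were set to that median, here called the floor, which was 12.7 for BMM, 14.5 for pOC, 15.8 for mOCd and 14.8 for mOCp. The floor was exceeded by 54 of the 75 genes on 1 array or more, and by 35 on all 4. The 75th percentile of an array (87.0 in BMM, 81.5 in pOC, 79.1 in mOCd and 77.8 in mOCp) was reached on at least 1 array by 32 members, 42.7% of them, against 42.8% of all genes. To be counted higher or lower, a gene needed floored values at least 2-fold apart, the brighter of them at that percentile. Genes whose brighter value reached it are called eligible. Without replicates there is no test between stages, and 4 arrays set the limit of precision. The one guide to error was how far probe sets of a gene differed, whose SD per log2 ratio over all genes was 0.392 for pOC against BMM, 0.397 for mOCp against pOC, 0.504 for mOCd against pOC and 0.427 for mOCd against mOCp. That SD covers transcript differences but not the spread between cultures or animals, and a 2-fold difference is 1 on the log2 scale.

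The stage labels were checked against marker genes. The 10 osteoclast markers had summed intensities of 250.6 in BMM, 32519.8 in pOC, 51729.0 in mOCd and 50165.5 in mOCp, and the 7 macrophage markers had 18813.6, 5528.7, 8313.9 and 9276.1 in the same order of arrays. Csf1r, the M-CSF receptor, carried most of the macrophage sum after BMM (4898.6 in pOC against 5815.9 in BMM), while the other 6 markers were counted lower in pOC than in BMM, with a median log2 ratio over the 7 of -4.61. Neutrophil markers (7 genes) summed to 310.6, 825.1, 946.9 and 1859.0, with S100a8 and Lcn2 highest in mOCp. Of 6 stromal and osteoblast markers, Dcn alone reached the 75th percentile (8.8 in BMM, 196.1 in pOC, 127.3 in mOCd and 55.0 in mOCp), and Col1a1 stayed under the floor on all 4 arrays. Of the B cell, T and NK cell and erythroid markers, none reached the 75th percentile. Their part in the results below was not tested, and in such bulk RNA a change in the share of a cell type and a change in RNA per cell cannot be told apart.

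RefSeq promoter windows (build GRCm38.p6) were found for 54 of the 75 genes, among them 11 of the 16 members counted in any comparison. The 250 bases before the start are printed 5' to 3' for 3 members that were higher in osteoclasts and 2 that were lower in pOC, so that a reader can set sequence beside level; they were chosen with the values known. Capitals mark every match, on either strand, to TGANTCA (AP-1), GGAAA (the core of NFAT sites), CACGTG (an E-box), ACGTG (the core of hypoxia response elements, contained in the E-box) or GAGGAA (a core of PU.1 sites, which overlaps GGAAA where an A follows).
St8sia6 (chr2:13793521-13793770, minus strand): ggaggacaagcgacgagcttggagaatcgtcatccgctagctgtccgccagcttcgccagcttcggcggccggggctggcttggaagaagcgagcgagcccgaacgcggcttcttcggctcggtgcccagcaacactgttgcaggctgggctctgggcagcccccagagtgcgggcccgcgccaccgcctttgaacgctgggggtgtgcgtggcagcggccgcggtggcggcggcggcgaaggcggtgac
St8sia4 (chr1:95667595-95667844, minus strand): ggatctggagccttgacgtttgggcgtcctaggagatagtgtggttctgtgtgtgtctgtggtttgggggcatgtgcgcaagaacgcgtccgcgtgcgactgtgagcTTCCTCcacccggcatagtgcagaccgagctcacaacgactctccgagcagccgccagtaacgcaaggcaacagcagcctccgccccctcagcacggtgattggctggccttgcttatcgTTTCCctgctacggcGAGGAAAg
Galnt6, one start (chr15:100729377-100729626, minus strand): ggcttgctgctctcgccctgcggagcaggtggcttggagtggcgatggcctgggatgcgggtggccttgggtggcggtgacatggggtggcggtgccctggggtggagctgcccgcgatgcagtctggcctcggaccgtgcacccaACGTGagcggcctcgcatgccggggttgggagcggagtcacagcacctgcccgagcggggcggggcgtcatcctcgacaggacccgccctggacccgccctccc
Galnt6, another start (chr15:100720478-100720727, minus strand): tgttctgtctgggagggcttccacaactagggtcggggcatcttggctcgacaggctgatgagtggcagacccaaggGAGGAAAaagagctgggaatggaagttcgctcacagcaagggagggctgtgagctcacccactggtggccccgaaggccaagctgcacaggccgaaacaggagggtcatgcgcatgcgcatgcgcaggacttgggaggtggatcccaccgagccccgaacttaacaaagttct
Mgat5 (chr1:127204736-127204985, plus strand): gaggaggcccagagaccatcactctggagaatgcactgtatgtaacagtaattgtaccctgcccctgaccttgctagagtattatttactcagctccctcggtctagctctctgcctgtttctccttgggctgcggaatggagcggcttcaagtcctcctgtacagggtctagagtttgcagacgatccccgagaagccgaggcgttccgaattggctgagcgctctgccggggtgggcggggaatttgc
St3gal5 (chr6:72097358-72097607, plus strand): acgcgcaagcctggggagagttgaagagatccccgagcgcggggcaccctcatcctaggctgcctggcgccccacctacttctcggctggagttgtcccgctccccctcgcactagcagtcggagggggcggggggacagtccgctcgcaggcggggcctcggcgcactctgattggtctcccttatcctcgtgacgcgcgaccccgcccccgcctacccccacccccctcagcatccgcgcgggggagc
The windows of St8sia6, Mgat5 and St3gal5 held none of these letters, and those of St8sia4 held GAGGAA and GGAAA on 1 strand or the other at 2 places each. One Galnt6 window held GAGGAA with an overlapping GGAAA, and the other held ACGTG. Over the 75 windows of the members, TGANTCA occurred in 6.67% against 6.75% of all 32851 windows, GGAAA in 56.0% against 55.6%, CACGTG in 6.67% against 6.02%, ACGTG in 18.7% against 16.6% and GAGGAA in 29.3% against 23.3%. The members' windows were richer in G and C, with a median of 60% against 52.4%, and in CpG, with a median of 14 against 6 per window. Several members have more than 1 window. A match describes letters and shows neither a site nor a cause.

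The comparison of pOC with BMM asked which glycosyltransferases differ after 2 days with RANKL. With no array of macrophages cultured equally long in M-CSF alone, the effects of RANKL and of the added days cannot be told apart. Higher in pOC were the sialyltransferases St3gal1, St3gal2, St3gal3, St6galnac4 and St8sia4, together with Galnt6 and Mgat4b. Lower in pOC were the sialyltransferase St3gal5 and the galactosyltransferase B4galt6, which both act on glycolipids, the branching enzyme Mgat5 and B3gnt8. Of 9 eligible sialyltransferases 5 were thus higher and 1 lower, and of the 20 other eligible members 2 were higher and 3 lower, a difference that was not tested. In all 7 of 29 eligible members were counted higher (24.1%), against 11.1% of eligible genes of all kinds, and 4 were lower (13.8%), against 13.2%. The median log2 ratio of the 51 members above the floor on either array was -0.16, against 0.09 for all 11893 such genes. It was -0.018 with the floor at the 40th or at the 60th percentile. It turned positive under spike-in scaling (0.015) and when probe sets were averaged (0.044). Among the eligible members the median log2 ratio was 0.028, against 0.045 for all eligible genes, and the median absolute log2 ratio was 0.74, against 0.51.

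**Figure D1:**
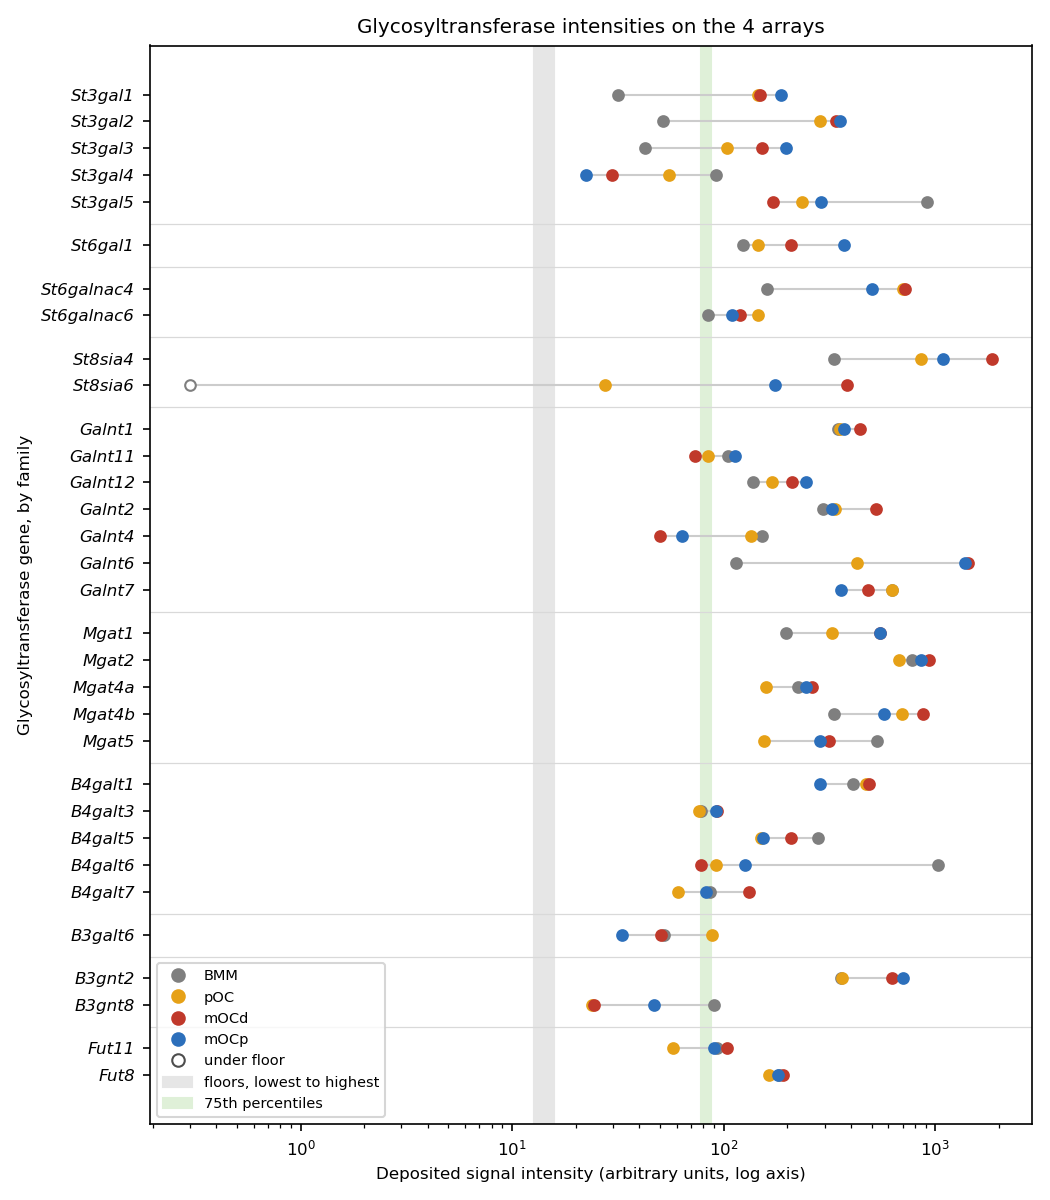
Intensity (horizontal log axis, arbitrary units) of the 32 glycosyltransferases that reached the 75th percentile on at least 1 array, 1 point per array and 1 row per gene, with families separated by lines. Open points lie under the floor of their array, and the grey and green bands span the 4 floors and the 4 values of the 75th percentile. St8sia6 and Galnt6 lie far to the right in mOCd and mOCp relative to BMM, and B4galt6 and St3gal5 far to the left. Rows should not be compared with each other, since each probe set has its own brightness.

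St3gal1 and St3gal2 transfer sialic acid to the galactose of the simplest O-glycans, and St3gal2 also acts on gangliosides. St3gal2 stood at 51.5 in BMM, 285.1 in pOC, 338.3 in mOCd and 354.2 in mOCp, so that pOC and both mature cultures lay far above BMM. It was 5.54-fold higher in pOC than in BMM, and its other probe sets were 4.12-fold and 2.84-fold higher. St3gal1 showed 31.8 in BMM, 145.2 in pOC, 149.0 in mOCd and 185.8 in mOCp, which is 4.57-fold higher in pOC than in BMM, and its other probe set, under the floor in BMM, was at least 1.75-fold higher. Neither gene was counted in a later comparison. The St3gal2 probe sets disagreed there: another was lower in mOCd, at 137.4 against 175.1 in pOC, and a further one was 2.83-fold higher, at 187.3 in mOCd against 66.1 in pOC.

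St3gal3, St3gal4 and St3gal6 cap the antennae of N-glycans, and they did not go together. St3gal3 read 42.7 in BMM, 103.3 in pOC, 151.3 in mOCd and 198.0 in mOCp and was 2.42-fold higher in pOC than in BMM, a call that was lost with the mean over probe sets (log2 ratio 0.97). St3gal4 read 92.4, 55.3, 29.8 and 22.3 in the same order of arrays. No single step of St3gal4 was counted, but its intensity in mOCd was 3.1-fold and in mOCp 4.14-fold lower than in BMM. St3gal6 had 85.9 in BMM, just under the 75th percentile, 17.0 in mOCp, and values under the floor in pOC and mOCd (at least 5.92-fold lower in pOC than in BMM, not eligible). Another of its probe sets did the same, with 6.9 in pOC, under the floor, against 90.6 in BMM, whereas a further one read 35.0 in pOC against 28.4 in BMM, so the St3gal6 result depends on the probe set. St3gal6 was counted lower in pOC than in BMM under cyclic loess normalization and on omission of suffixed probe sets.

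St3gal5 makes the ganglioside GM3 from lactosylceramide, which B4galt5 and B4galt6 produce. St3gal5 stood at 909.0 in BMM, 234.9 in pOC, 171.7 in mOCd and 288.3 in mOCp, 3.87-fold lower in pOC than in BMM, with a log2 ratio of -1.95 and, on its other probe set, -1.82. B4galt6 stood at 1034.9 in BMM, 91.8 in pOC, 77.7 in mOCd and 126.4 in mOCp. It was 11.3-fold lower in pOC than in BMM, the lowest ratio among the eligible members, and its log2 ratio was -3.50, beside values between -3.39 and -2.90 on its 3 other probe sets. B4galt5, with 280.1 in BMM, 150.4 in pOC, 209.1 in mOCd and 153.9 in mOCp, had a log2 ratio of -0.90 and was not counted. Median scaling counted B4galt5 as lower in pOC than in BMM. Glycosphingolipid enzymes outside the families included Ugcg, which makes the glucosylceramide on which lactosylceramide is built, and B4galnt1, which extends gangliosides. A further one, A4galt, was under the floor on every array. Ugcg read 124.6 in BMM, 70.1 in pOC, 12.6 in mOCd, under the floor, and 23.8 in mOCp, and B4galnt1 read 271.5, 437.0, 180.1 and 149.2 in that order. BMM was thus the highest array for B4galt5, B4galt6, St3gal5 and Ugcg, and pOC for B4galnt1.

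St6gal1 caps N-glycan antennae in another linkage. It had 122.9 in BMM, 145.5 in pOC, 207.7 in mOCd and 369.6 in mOCp, and only its mOCp value stood clearly above the others. St6galnac4 adds sialic acid to the N-acetylgalactosamine of O-glycans that already bear one, and St6galnac6 acts mainly on gangliosides. St6galnac4 read 160.5 in BMM, 704.7 in pOC, 716.3 in mOCd and 502.2 in mOCp, 4.39-fold higher in pOC than in BMM, with log2 ratios of 2.13 and, on its other probe set, 2.19. St6galnac6 read 84.2, 145.4, 119.0 and 110.0 in the same order and stayed within 2-fold throughout. St6galnac1, the enzyme that makes the sialyl-Tn antigen, exceeded the floor but never the 75th percentile, at 19.9 in BMM, 11.3 in pOC, under the floor, 35.9 in mOCd and 28.1 in mOCp.

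St8sia4 is a polysialyltransferase, which builds long sialic acid chains on a few carrier proteins, and St8sia6 adds sialic acid to sialylated O-glycans. St8sia4 read 331.5 in BMM, 859.7 in pOC, 1851.8 in mOCd and 1087.2 in mOCp and was 2.59-fold higher in pOC than in BMM with a log2 ratio of 1.38 on the representative probe set and 1.30 on the other. St8sia6 read 0.3 in BMM, under the floor, 27.5 in pOC, 383.0 in mOCd and 174.6 in mOCp. All its probe sets were highest in mOCd and next in mOCp: another read 243.3 in mOCd and 75.7 in mOCp, and a further one 178.6 in mOCd and 59.2 in mOCp, both under the floor in BMM and pOC. The pOC value of the representative, at least 2.17-fold above BMM, was not eligible, and no other probe set measured it.

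Among the enzymes that start O-glycans, Galnt6 differed from the others. It stood at 114.3 in BMM, 426.3 in pOC, 1422.2 in mOCd and 1386.0 in mOCp, so that each later stage lay above the one before and the mature cultures lay together. Galnt6 was 3.73-fold higher in pOC than in BMM, with log2 ratios of 1.90 on the representative and 1.62 and 0.36 on the others. Galnt1 and Galnt2, which act in most cell types, hardly moved at this step. Galnt1 read 348.4 in BMM, 355.3 in pOC, 438.4 in mOCd and 368.7 in mOCp, and Galnt2 read 295.0, 335.5, 523.0 and 325.2. Galnt7 and Galnt4, which favour peptides that already carry a sugar, read 624.4 in BMM, 621.2 in pOC, 483.3 in mOCd and 356.8 in mOCp for Galnt7 and 151.5, 135.2, 50.1 and 63.7 for Galnt4. Galnt4 was thus close in BMM and pOC and lower in both mature cultures. The probe sets of Galnt7 had no common order: another read 423.2 in BMM, 465.0 in pOC, 482.1 in mOCd and 283.0 in mOCp, and a further one was highest in pOC (411.7, against 342.6 in BMM). Galnt12 read 137.9, 169.8, 209.8 and 244.0, and Galnt11, an enzyme known to glycosylate Notch, read 105.3, 84.5, 73.4 and 112.9, both within 2-fold over all 4 arrays. Galnt3, a close relative of Galnt6, stayed below the 75th percentile, at 55.3 in BMM, 16.4 in mOCp and under the floor in pOC (10.5) and mOCd (4.9).

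The Mgat enzymes open the antennae of N-glycans in sequence. Mgat1, which starts the first antenna of hybrid and complex chains, read 196.4 in BMM, 323.4 in pOC, 546.3 in mOCd and 547.4 in mOCp, with log2 ratios of 0.72 at the first step and 0.76 at each step to a mature culture, and was 2.78-fold higher in mOCd than in BMM over the whole course. Mgat2, which starts the next, read 777.9, 674.9, 929.7 and 858.2. Its other probe set was highest in BMM, at 230.0, with 104.4 in pOC (2.2-fold lower), 161.8 in mOCd and 150.3 in mOCp, so the Mgat2 order depends on the probe set. Mgat4b adds a further antenna and read 333.1 in BMM, 699.0 in pOC, 870.6 in mOCd and 572.9 in mOCp, 2.1-fold higher in pOC than in BMM, a call on 1 probe set that was lost under median scaling (log2 ratio 0.88) and cyclic loess (0.97). Mgat4a, with the same activity, read 224.8, 157.8, 260.1 and 244.4, all within 2-fold. Mgat5, which opens the antenna that carries long lactosamine chains bound by galectins, read 531.7 in BMM, 155.0 in pOC, 313.1 in mOCd and 284.5 in mOCp. It was 3.43-fold lower in pOC than in BMM, with a log2 ratio of -1.78 and, on another bright probe set, -1.76, and both mature cultures lay between pOC and BMM. A further, dim Mgat5 probe set read 14.6 in BMM and was under the floor in pOC, mOCd and mOCp.

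Of the chain-lengthening enzymes, B4galt1, the main galactosyltransferase of N-glycan antennae, read 409.7 in BMM, 471.4 in pOC, 484.2 in mOCd and 285.7 in mOCp. It was lowest in mOCp and within 2-fold throughout. B4galt3, a close relative, read 77.7, 76.2, 93.1 and 91.8. B3gnt2, the main enzyme of lactosamine chains, read 358.2, 364.0, 621.9 and 707.4, close to each other in BMM and pOC and higher in both mature cultures without reaching 2-fold. B3gnt8, which can act with B3gnt2, read 90.0 in BMM, 23.8 in pOC, 24.3 in mOCd and 46.8 in mOCp and was 3.78-fold lower in pOC than in BMM, on its only probe set. B4galt7 and B3galt6 add the galactoses of the linker that joins glycosaminoglycans to proteoglycans. B4galt7 read 86.4 in BMM, 61.1 in pOC, 131.2 in mOCd and 82.4 in mOCp, and B3galt6 read 52.1, 87.7, 50.8 and 32.9, so they were highest on different arrays. Fut8, which adds the core fucose of N-glycans, read 182.5 in BMM, 163.9 in pOC, 189.9 in mOCd and 180.2 in mOCp, the smallest ratio of highest to lowest array among the 32 members at the 75th percentile, and Fut11 read 93.1, 57.7, 103.7 and 89.8.

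The comparison of mOCp with pOC asked what maturation on plastic brings, over 2 further days of culture that cannot be told apart from maturation. St8sia6, Galnt6 and St6gal1 were higher in mOCp and B3galt6 and Galnt4 lower. St8sia6 was 6.35-fold higher, at 174.6 in mOCp against 27.5 in pOC. Its log2 ratios were 2.67 and, on the other probe sets, under the floor in pOC, at least 2.38 and 2.03. Galnt6 was 3.25-fold higher, at 1386.0 in mOCp against 426.3 in pOC, with log2 ratios of 1.70 and, on the others, 1.45 and 1.90. St6gal1 was 2.54-fold higher, at 369.6 in mOCp against 145.5 in pOC, with 1.34 and, on its other probe set, 1.15, and it missed 2-fold under spike-in scaling (log2 ratio 0.93). B3galt6 was 2.67-fold lower, at 32.9 in mOCp against 87.7 in pOC, and Galnt4 2.12-fold lower, at 63.7 in mOCp against 135.2 in pOC. Averaging probe sets ended both calls, and quantile or loess normalization that of Galnt4. St3gal3, 1.92-fold higher in mOCp than in pOC, was not counted, but each of these 3 alternatives counted it as higher. Among 30 eligible members 3 were higher (10.0%, against 8.8% of all eligible genes) and 2 lower (6.67%, against 11.4%), shares near or under the background. The median log2 ratio of 49 members above the floor was 0.31, against 0.01 for all genes and -0.10 for the members with spike-in scaling.

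**Figure D2:**
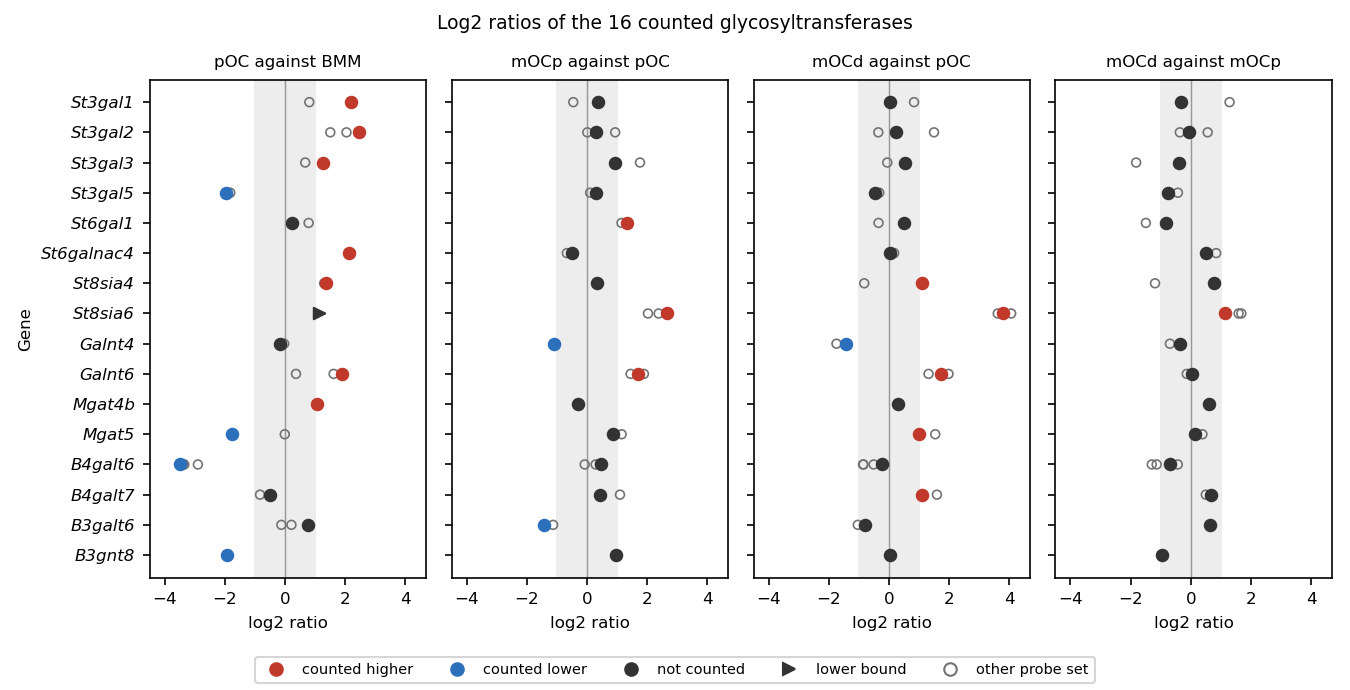
Log2 ratios (horizontal axis) of the 16 glycosyltransferases counted in at least 1 comparison, 1 panel per comparison. Filled points are the representative probe sets, with triangles for lower bounds, and the grey band spans differences under 2-fold. Open circles are the other probe sets of the gene that exceeded the floor on either array, lower bounds included. The 3 probe sets of St8sia6 lie together on the right in the 3 comparisons that involve a mature culture, and those of B4galt6 lie together on the left in pOC against BMM.

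The comparison of mOCd with pOC covered maturation on dentin, where maturation, time and the substrate cannot be told apart. St8sia6, Galnt6, St8sia4, B4galt7 and Mgat5 were higher in mOCd, and Galnt4 was lower. St8sia6 was 13.9-fold higher, at 383.0 in mOCd against 27.5 in pOC. Its 3 probe sets had log2 ratios of 3.80 and, on the others, under the floor in pOC, at least 4.07 and 3.62. The ratio of the representative was the 6th highest of 7192 eligible genes measured above the floor on both arrays. Galnt6 was 3.34-fold higher, at 1422.2 in mOCd against 426.3 in pOC, with log2 ratios of 1.74 and, on the others, 1.32 and 1.99.

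The other mOCd differences were smaller. St8sia4 was 2.15-fold higher on its representative probe set, at 1851.8 in mOCd against 859.7 in pOC, but its other probe set was lower, at 77.1 in mOCd against 135.9 in pOC (log2 ratios 1.11 and -0.82). B4galt7 was 2.15-fold higher, at 131.2 in mOCd against 61.1 in pOC, with log2 ratios of 1.10 and 1.60, and Mgat5 2.02-fold higher, at 313.1 in mOCd against 155.0 in pOC, with 1.01 and, on its second bright probe set, 1.54. Median scaling ended the calls on St8sia4 (log2 ratio 0.98), B4galt7 (0.98) and Mgat5 (0.89), and spike-in scaling did so too (0.81, 0.81 and 0.72). Averaging probe sets ended those on St8sia4 (0.145) and Mgat5 (0.89). Galnt4 was 2.7-fold lower, at 50.1 in mOCd against 135.2 in pOC, with a log2 ratio of -1.43. Another of its probe sets, under the floor in mOCd, had -1.74 or lower. The 5 higher and 1 lower among 30 eligible members came to 16.7% and 3.33%, against 10.8% and 12.3% of eligible genes of all kinds. The median log2 ratio of 47 members above the floor was 0.25, against 0.01 for all genes, and it was -0.048 for the members under spike-in scaling.

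Between mature cultures, mOCd against mOCp, a single member was counted. St8sia6 was 2.19-fold higher in mOCd, at 383.0 against 174.6 in mOCp, with log2 ratios of 1.13 on the representative and 1.68 and 1.59 on the others. It was 1 of 28 eligible members (3.57%, against 2.15% of all eligible genes), and 0 were lower (against 2.55%). St6gal1 was the eligible member with the lowest ratio, at 207.7 in mOCd against 369.6 in mOCp (log2 ratio -0.83), and its other probe set read 38.4 in mOCd against 108.0 in mOCp (-1.49). Averaging probe sets counted St6gal1 as lower, and likewise St3gal3, whose other probe set read 19.5 in mOCd against 68.6 in mOCp. Of 4 eligible macrophage markers 3, C1qa, C1qb and Adgre1, were also lower in mOCd than in mOCp, and Csf1r was not (7644.1 against 7511.7). Of 4 eligible neutrophil markers 2, S100a8 and Lcn2, were lower, and S100a9 and Ngp were not counted. The stromal marker Dcn was 2.31-fold higher in mOCd. Whether any of these markers bears on St6gal1 was not tested.

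**Figure D3:**
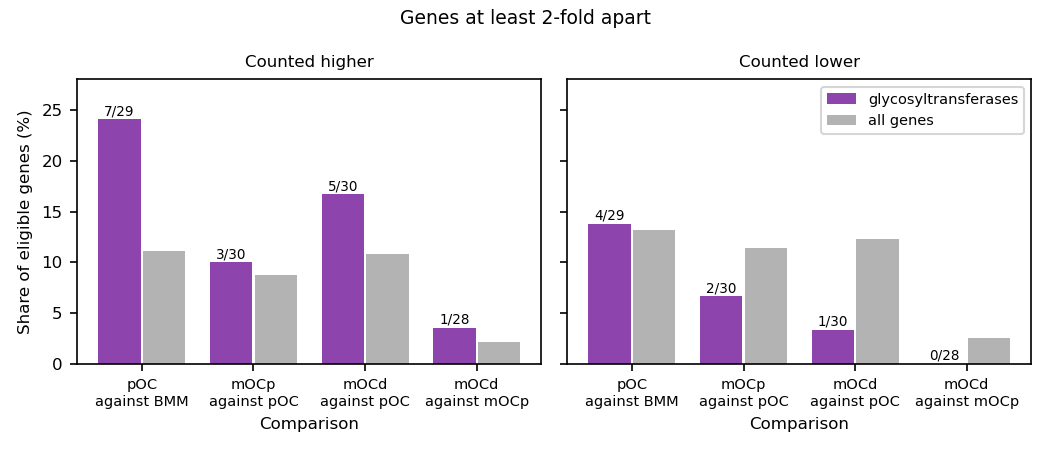
Share of eligible genes counted as higher (left) and lower (right) in each comparison, as a percentage on the vertical axis, for the glycosyltransferases beside all genes, with the counted and eligible members above each bar. The higher share of the members in pOC against BMM, 24.1% beside 11.1%, is the widest gap.

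The members thus split by where they were highest. Of the 32 that reached the 75th percentile, 14 were highest in mOCd (43.8%, against 24.9% of all such genes), 8 in mOCp (25.0% against 17.9%), 8 in BMM (25.0% against 33.2%) and 2 in pOC (6.25% against 23.9%). Median scaling gave 6 in mOCd (18.8% against 16.8% of all such genes), 9 in mOCp (28.1% against 18.2%), 13 in BMM (40.6% against 44.9%) and 4 in pOC (12.5% against 20.1%). Spike-in scaling gave 11 in mOCd (34.4% against 21.8%), 4 in mOCp (12.5% against 7.51%), 7 in BMM (21.9% against 31.0%) and 10 in pOC (31.2% against 39.7%). The counts moved with the scaling. Beside all genes the members' share was higher in mOCd and mOCp and lower in BMM and pOC under all 3 scalings. Some of these differences were small (18.8% against 16.8% in mOCd under median scaling), and none was tested. The highest array was taken without a margin, so narrow leads were included. St6galnac4 read 716.3 in mOCd against 704.7 in pOC, Galnt6 1422.2 in mOCd against 1386.0 in mOCp, and Mgat1 547.4 in mOCp against 546.3 in mOCd. The highest array also depended on the probe set. Another probe set of Mgat4a read 79.1 in BMM and 45.3 in mOCd, and one of Fut11 51.7 and 29.4. That of St8sia4 read 175.5 in mOCp and 77.1 in mOCd. The other probe sets of B4galt7, Galnt2 and St8sia6 were highest in mOCd, as was one each of St3gal2 and Galnt7, whose representatives were not. The counted ratios could be set beside 31 ratios from 20 other probe sets, some used in several comparisons. Of these ratios 30 ran in the direction of the representative, and the exception was that of St8sia4 in mOCd against pOC. Only the sign was compared, so very small ratios also counted, such as -0.01 on a dim Mgat5 probe set in pOC against BMM. Across the whole course, the values furthest from BMM were those of St8sia6, at least 30.2-fold higher in mOCd and at least 13.7-fold in mOCp, Galnt6, 12.4-fold and 12.1-fold higher, and B4galt6, 13.3-fold and 8.19-fold lower.

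Members that exceeded the floor without reaching the 75th percentile numbered 22. Fut4, which helps to make selectin ligands, came closest after St3gal6, at 77.4 in pOC against 35.7 in BMM, 20.6 in mOCd and 23.2 in mOCp. B3gnt3, an enzyme that extends O-glycans, ranged between 1.3 in mOCd and 74.6 in BMM, and B3galt4, which acts on gangliosides, between 39.5 in mOCp and 61.5 in BMM. Galnt10 lay between 20.8 and 50.2, B3gnt5, the first enzyme of lacto-series glycolipids, between 1.6 and 37.1, and B4galt4 between 2.1 and 30.0. The rest stayed lower still. Ranges were 10.2 to 27.0 for B3galt5, 2.4 to 22.2 for B3gnt7, 1.0 to 19.4 for B3gnt9 and 17.7 to 27.2 for B4galt2. Those of Fut2, Fut7 and Fut10 were 1.2 to 17.2, 5.2 to 19.0 and 1.3 to 17.2. Galnt16 ranged between 5.6 and 28.5 and Galnt18 between 0.7 and 25.0, both enzymes of the O-glycan start. Among sialyltransferases, St6galnac3 ranged between 6.5 and 17.7, St6galnac5 between 13.2 and 21.7, St8sia1 between 11.4 and 21.9 and St8sia5 between 8.6 and 18.9. A further 21 never exceeded the floor and have no measured level here: B3galt1, B3galt2, B3gnt4, B3gnt6, Fut1, Fut4-ps1, Fut9, Galnt5, Galnt9, Galnt13, Galnt14, Galnt15, Mgat3, Mgat4c, Mgat4d, Mgat4e, Mgat5b, St6gal2, St6galnac2, St8sia2 and St8sia3.

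Genes that feed or flank these enzymes were taken from lists drawn up with earlier results of these data known. Of 18 eligible genes of sugar nucleotide synthesis and Golgi transport, 2 were higher in pOC than in BMM (11.1%, the same share as among all eligible genes) and 0 lower (against 13.2%). They were Galt, a galactose-handling enzyme, at 336.9 in pOC against 135.0 in BMM (2.5-fold), and Pgm3, which makes a precursor of UDP-N-acetylglucosamine, at 201.8 against 99.5 (2.03-fold). In the other 3 comparisons 0 of 19 were counted. The shares of all eligible genes there were 8.8% higher and 11.4% lower for mOCp against pOC and 10.8% and 12.3% for mOCd against pOC. For mOCd against mOCp they were 2.15% and 2.55%. Cmas, which activates sialic acid for all sialyltransferases, read 685.0 in BMM, 1268.4 in pOC, 1346.3 in mOCd and 1409.1 in mOCp and was not counted. The other sialic acid genes of this list did not all go with it, and none was counted. In the same order of arrays, Gne read 65.4, 78.9, 121.7 and 113.9, and Nans 683.5, 508.5, 353.4 and 465.4. Nanp read 260.0, 190.5, 140.5 and 136.3, and Slc35a1 105.5, 165.2, 119.0 and 90.5.

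Of 26 other Golgi enzymes of N- and O-glycans, 15 were eligible in pOC against BMM, with 1 higher (6.67%) and 4 lower (26.7%). For mOCd against pOC 2 of 14 were higher (14.3%) and 2 lower (14.3%), and for mOCp against pOC 1 of 13 was higher (7.69%) and 2 lower (15.4%), with 0 of 12 counted for mOCd against mOCp. The shares of all eligible genes are those given above for each comparison, 13.2% lower for pOC against BMM among them. Gcnt1, which branches the O-glycans that St3gal1 otherwise caps, read 620.1 in BMM, 159.0 in pOC, 34.3 in mOCd and 61.7 in mOCp, counted lower in pOC than in BMM and in each mature culture than in pOC. Gnptab, whose enzyme makes the mannose 6-phosphate tag of lysosomal proteins, read 472.6, 1207.2, 2900.8 and 2497.3 and was counted higher in pOC and in both mature cultures. The mannosidases Man1a and Man1c1, which trim N-glycans before Mgat1 acts, were 7.94-fold and 2.27-fold lower in pOC than in BMM, and Pofut1, which puts fucose on Notch, was 2.16-fold lower in pOC than in BMM and 2.44-fold higher in mOCd than in pOC. B4galnt1 was 2.43-fold lower in mOCd and 2.93-fold lower in mOCp than in pOC. A further list held genes that assemble, transfer or trim the N-glycan precursor, 26 of them eligible for pOC against BMM. Counted there were Mogs, a trimming enzyme, 2.05-fold higher, and Alg13, 2.47-fold lower. Each made up 3.85%, beside 11.1% (higher) and 13.2% (lower) of all eligible genes. In each mature culture 2 of 25 were lower than in pOC (8.0%, against 12.3% of all in mOCd and 11.4% in mOCp). These were Mogs (2.23-fold in mOCd, 2.74-fold in mOCp) and Alg8 (2.78-fold and 3.07-fold). For mOCd against mOCp 0 were counted.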

How the data were processed

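Each of the 4 arrays gave 1 value per probe set, deposited as a linear signal intensity in arbitrary units. MAS5 is the tool named, per the submitters' processing notes, and its version is not given in the sources used here. The deposited values had a trimmed mean of 100.0 on every array (2% trimmed from each end), so each array had been scaled to the same target, which removes differences in total mRNA. Dim MAS5 values are imprecise, and raw scans and detection calls were not used here. There were 45101 probe sets, of which 64 were controls. A platform annotation dated 2016 gave 34945 of the others exactly 1 symbol, and these alone were used. All 75 members matched RefSeq by Entrez identifier, 4 RefSeq symbols that the rule would take were not analysed here, and 1 probe set with several symbols, B4galt2 among them, was left out.

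From these values were computed the floor (50th percentile of the non-control probe sets), 1 probe set per gene (highest mean log2 of the floored values), ratios, and calls (2-fold, brighter value at or above the 75th percentile). With the dimmer side at the floor, a fold is a lower bound, written as at least. Ratios were formed of pOC over BMM, of each mature culture over pOC, and of mOCd over mOCp, and they share arrays. Every member at the 75th percentile on at least 1 array is named with its 4 values, others by range or name. List genes are named where counted, with Ugcg, Cmas and others chosen after their values were seen. Members and lists were chosen with earlier results of these data known. Promoter windows are shown in place of the protein sequences first planned.

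The alternatives were floors at the 40th and 60th percentiles, scaling to each array's median or to its hybridisation spike-in controls, quantile and cyclic loess normalization, the mean over probe sets, omission of suffixed probe sets (_a_at, _s_at, _x_at) and a 3-fold threshold. Choosing the probe set on unfloored values was added after seeing the data. The calling step was tested on simulated data. Python 3.11.15, numpy 2.4.6, pandas 2.3.3, matplotlib 3.10.9, R 4.3.3 and limma 3.58.1 were used.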

Additional observations from a re-analysis of the deposited data

How the results depend on the processing

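Calls on Galnt6, St8sia6 (against pOC), B4galt6, St3gal1, St3gal2, St3gal5, St6galnac4, B3gnt8 and, in pOC against BMM, Mgat5 held under every alternative run for them, and none of the 23 counted ratios changed sign. The floors at the 40th and 60th percentiles, the omission of suffixed probe sets and the choice of probe set on unfloored values left every count within 1.5 times. St3gal3, St3gal5 and St8sia4 have suffixed probe sets only, so the omission removed them and could not assess their calls. It left 22 eligible members for pOC against BMM, beside 29. Median scaling shifted log2 ratios of all genes down by 0.191 for pOC against BMM, 0.03 for mOCp against pOC, 0.124 for mOCd against pOC and 0.094 for mOCd against mOCp, giving 2 members of 30 higher in mOCd than in pOC (against 8.82% of all genes) and a median of -0.033 for mOCd against mOCp. Spike-in scaling subtracted -0.17, 0.413, 0.294 and -0.119 in the same order. It gave, of 29 members, 4 lower in mOCp than in pOC (against 22.6% of all genes), 2 higher in mOCd than in pOC (6.81%) with 2 lower (20.1%), and medians of 0.015 (pOC against BMM), -0.10 (mOCp against pOC) and -0.048 (mOCd against pOC). For pOC against BMM, 809 genes of all kinds were higher and 956 lower, 589 and 1216 under median scaling, and 1040 and 782 under spike-in scaling. For mOCd against mOCp the counts were 149 and 176, 108 and 230, and 221 and 135. Spike-in scaling gave 294 and 1605 beside 633 and 820 for mOCp against pOC, and 489 and 1444 beside 779 and 886 for mOCd against pOC. Quantile normalization gave 1 member of 30 lower in mOCp than in pOC (against 10.5% of all genes), and loess gave 1 (10.2%). The mean over probe sets gave 0 of 30 members lower in mOCp than in pOC (against 8.19% of all genes), 3 of 30 higher in mOCd than in pOC (8.3%), 2 of 28 lower in mOCd than in mOCp (2.06%) and a median of 0.044 for pOC against BMM. A 3-fold threshold, stricter by construction, gave 4 of 29 higher in pOC than in BMM (against 4.67% of all genes), 0 of 30 lower in mOCp than in pOC (4.13%), 2 of 30 higher in mOCd than in pOC (4.54%) with 0 lower (4.84%), and 0 of 28 higher in mOCd than in mOCp (0.463%). Other causes were not tested. No paired analysis was possible because each stage has 1 array, and no replicate could be left out.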

Other observations

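Golgi structure and the lysosomal removal of glycans were examined as neighbours of the glycosyltransferases. Of 18 eligible genes for Golgi tethers and matrix proteins, 0 were counted in pOC against BMM (against 11.1% higher and 13.2% lower of all eligible genes). For mOCd against pOC 2 were higher (11.1%, against 10.8% of all eligible genes) and 1 lower (5.56% against 12.3%), for mOCp against pOC 1 was higher (5.56% against 8.8%), and for mOCd against mOCp 2 were lower (11.1% against 2.55%). Golgb1, which encodes the giant tether giantin, read 63.3 in BMM, 94.3 in pOC, 358.6 in mOCd and 220.8 in mOCp, 3.8-fold higher in mOCd and 2.34-fold higher in mOCp than in pOC. Golga2, encoding the matrix protein GM130, was 2.07-fold higher in mOCd than in pOC. Golph3l, a relative of the adaptor that keeps glycosyltransferases in the Golgi, was 2.03-fold lower in mOCd than in pOC and 2.81-fold lower than in mOCp, and Cog7, a subunit of the COG tether, was 2.15-fold lower in mOCd than in mOCp. The list's median log2 ratio was 0.58 in mOCd and 0.48 in mOCp against pOC, beside 0.01 for all genes in both.

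Of 9 measured genes that remove sugars in lysosomes, Glb1, the lysosomal beta-galactosidase, read 260.0 in BMM, 427.8 in pOC, 2967.9 in mOCd and 1772.7 in mOCp, 6.94-fold higher in mOCd and 4.14-fold higher in mOCp than in pOC. Hexa was higher in both mature cultures and Aga in mOCd. Thus 3 of 9 were higher in mOCd (33.3%, against 10.8% of all eligible genes) and 2 of 9 in mOCp (22.2% against 8.8%) than in pOC. In both, 0 were lower (against 12.3% and 11.4% of all). Fuca2 was 2.29-fold lower in pOC than in BMM, the 1 of 9 counted there (11.1%, against 13.2% of all). Neu1, the lysosomal sialidase, read 360.9 in BMM, 319.4 in pOC, 579.1 in mOCd and 567.3 in mOCp and was not counted. None of 8 receptors that bind sialic acid reached the 75th percentile on any array, and Siglec15 was not analysed here.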
